A study of Mus musculus with 2 samples.

Results

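Cyclins, cyclin-dependent kinases (CDKs), their inhibitors, the E2F and retinoblastoma families, replication licensing genes, mitotic kinases and the Myc factors were followed in mouse embryonic stem (ES) cells driven to differentiate. The genes were taken from a list of 47 symbols by the gene annotation of the array, and 46 of them were found among the 22485 named genes. No value entered this step, but the list was chosen with earlier results of these data known. Ccnb1 was not among the symbols and was not analysed here. The cells were Utx knockout ES cells (genotype Utx KO) and wild-type (WT) ES cells of the line V6.5, a name the labels attach to both. Utx, encoded by Kdm6a, is an X-linked demethylase that removes the repressive histone mark H3K27me3. Cells treated for 48 h with 100 nM retinoic acid (RA) in medium without leukaemia inhibitory factor (LIF) were set against untreated cells of the same line kept with LIF on gelatin. RA and the loss of LIF came together, so their effects cannot be told apart, and RA stands for both below. The labels do not say whether the knockout was 1 clone or several.

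The cell cycle engine works through waves of cyclins that switch on CDKs. D-type cyclins with Cdk4 or Cdk6, and then E- and A-type cyclins with Cdk2, phosphorylate the retinoblastoma (pocket) proteins, which releases E2F factors to turn on genes of DNA replication. B-type cyclins with Cdk1, helped by Cdc25 phosphatases, drive mitosis, and the proteins of the Cdkn1 and Cdkn2 families hold the CDKs back. Mouse ES cells are known for a short G1 phase and for CDK activity that stays high through the cycle, and their G1 phase lengthens as they differentiate.

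Each line had 1 array with 2 dyes, so every gene has 1 ratio per line, the log2 of treated over untreated cells. The direction is the likely one from the dyes in the labels, and the RA targets were high on both arrays: the 6 RA response markers found had ratios of 2.40 to 4.91 in the knockout and 0.67 to 4.37 in V6.5. Each array compares cells of 1 line, so the loss of Kdm6a in the knockout could not be checked. A ratio holds no level, so the ES cell identity could not be checked from the levels of its markers. The 10 pluripotency markers had ratios with a median of -0.30 in the knockout and -0.62 in V6.5, but their knockout minus V6.5 differences had a median of -0.39. Of the 10, 6 were lower in the knockout than in V6.5, 4 of them by at least 1.5-fold (Pou5f1, Klf4, Tdgf1 and Fgf4). In bulk RNA, fewer cells in a phase of the cycle or of a type and less RNA per cell cannot be told apart. No line has a replicate, so values of a line and differences between lines are descriptions. Across genes with 2 to 9 features, the standard deviation (SD) between the features of a gene had a median of 0.14 on each array. Its 90th percentile was 0.42 on each array. The test of the response common to both lines (limma with an intercept over both arrays, Benjamini-Hochberg adjusted p under 0.05) takes the arrays as 2 samples. Its standard errors (SE) join a gene's spread between the 2 arrays with that over all genes. They rest on 1 residual and 2.98 prior degrees of freedom. The smallest SE over all genes was 0.0726, so a value near it is not that gene's own spread. A dye bias at a gene enters both arrays with the same sign. Labels do not tell separate cultures of a line, so the p-values of the test measure only spread between these arrays, pooled in part over genes.

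Of the 46 cell cycle genes, 9 passed the test of the common response and 37 did not. At an unadjusted p under 0.05 in limma, 7 members were higher and 11 lower, against 3785 and 4027 of all 22485 genes. The unadjusted counts by role and list below are to be read beside these. In the common response, Ccnd2, E2f6 and Rb1 rose, and Ccnd1, Mycn, E2f2, Rbl2, Cdk2 and E2f4 fell. The test is against no change: against a change of 1.5-fold (limma's treat) none of the 9 passed, with adjusted p of 0.15 or more (1 higher and 2 lower at an unadjusted p under 0.05). The 3 genes that rose in the test against no change are 6.52% of the members, where 8.93% of all genes rose. The 6 that fell in it are 13.0% of the members, where 7.93% of all genes fell. The median ratio over the 46 genes was -0.01 in the knockout and 0.03 in V6.5, close to the medians of -0.02 over all genes on each array. On both arrays, 21 of the 46 genes lay within 0.2 of 0, which is 45.7%, against 42.5% of all genes.

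On the knockout array, 3 members were at least 1.5-fold higher after RA (Ccnd2, E2f6 and Rb1), 6.52% of them against 7.28% of all genes. At least 1.5-fold lower were 4 members (Ccnd1, Mycn, Cdkn2b and E2f2), 8.70% against 5.06% of all genes. On the V6.5 array the counts were again 3 higher (Ccnd2, E2f6 and Cdc25c), against 6.69% of all genes, and 4 lower (Mycn, Ccnd1, E2f2 and Rbl2), against 5.36% of all genes.

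**Figure D1:**
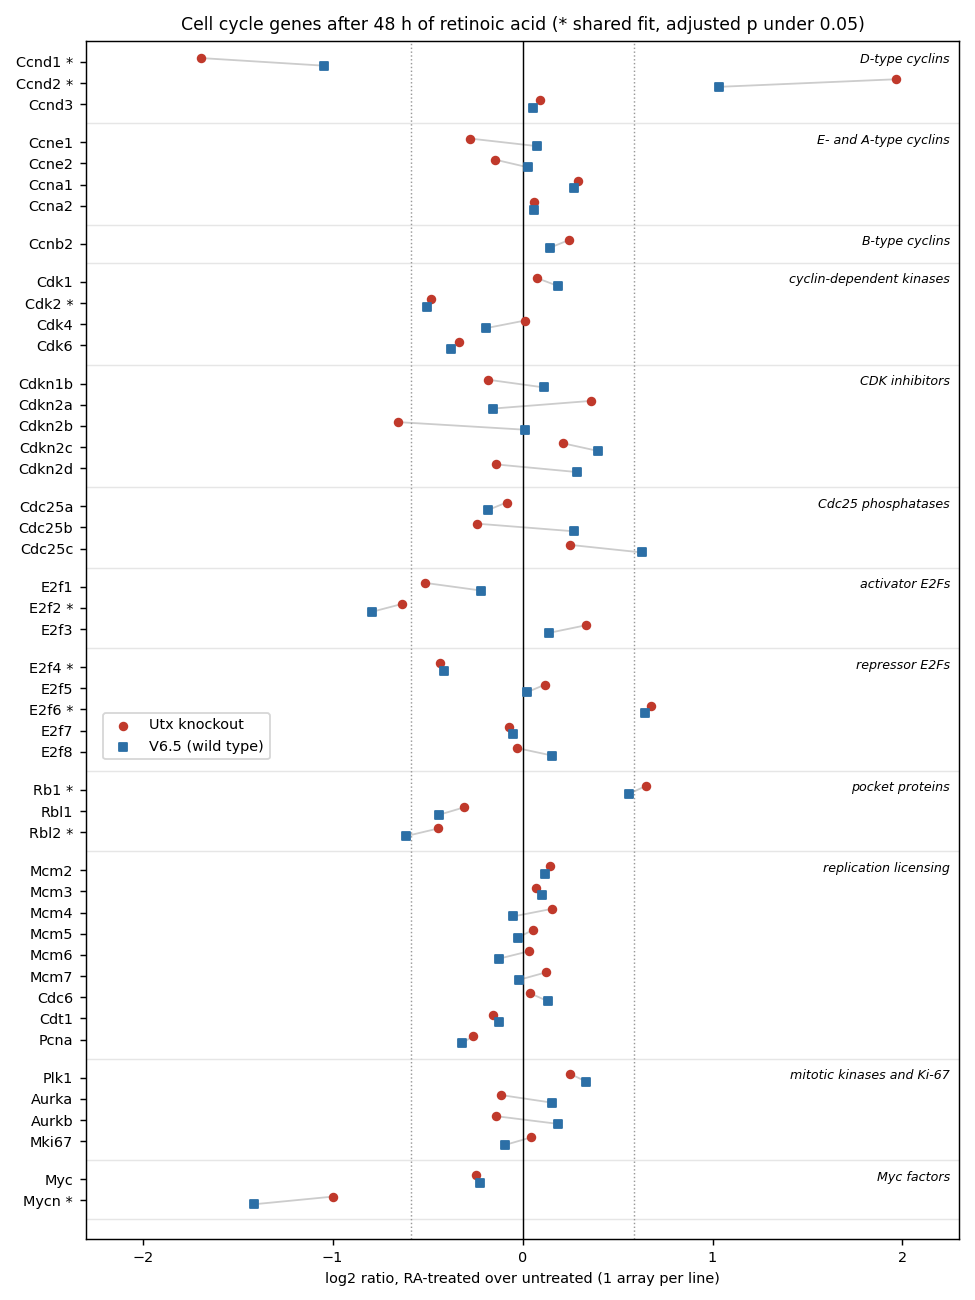
Ratios (log2) of treated to untreated cells for the 46 genes, grouped by role, with 1 point per array: circles for the Utx knockout and squares for V6.5. Dotted lines mark 1.5-fold and asterisks the 9 genes past the limma test; Ccnd1, Ccnd2 and Mycn lie far from 0, while the replication licensing genes lie between -0.32 and 0.16.

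The D-type cyclins, which link growth signals to Cdk4 and Cdk6, moved in opposite directions. Ccnd2 had a log2 ratio of 1.97 in the knockout and 1.03 in V6.5, which is 3.91-fold and 2.04-fold higher after RA. It ranked 152 from the top of all 22485 genes in the knockout and 533 from the top in V6.5. Ccnd1 had -1.69 in the knockout and -1.04 in V6.5, which is 3.23-fold and 2.06-fold lower, and ranked 81 and 321 from the bottom. Both passed the limma test of the common response, Ccnd2 with a mean of 1.499 ± 0.25 (SE, n = 2 arrays, adjusted p = 0.0332) and Ccnd1 with -1.37 ± 0.18 (adjusted p = 0.0224). Ccnd3 stayed near 0, with 0.09 ± 0.13 in the knockout and 0.05 ± 0.07 in V6.5 (SD between 2 features), and did not pass. Ccnd1 and Ccnd2 each rested on 1 feature, as did every other member past the test but Rb1. Markers of fibroblasts, cells that can accompany ES cells in culture, were lower after RA too. Of the 10 listed, 8 fell in the limma test, where 7.93% of all genes fell, and Dcn and Lum did not pass. Over all 10 the ratios ran from -2.63 to -0.05 in the knockout and from -1.95 to -0.19 in V6.5. The part of these markers in the ratio of Ccnd1 was not tested.

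The cyclins that act later in the cycle had ratios between -0.28 and 0.29. Ccne1 and Ccne2, the E-type cyclins of S phase entry, had -0.28 and -0.14 in the knockout against 0.08 and 0.03 in V6.5. Ccna2, the A-type cyclin of dividing somatic cells, had 0.06 on both arrays. The germline cyclin Ccna1 was measured with 10 features, which gave 0.29 ± 0.07 in the knockout and 0.27 ± 0.09 in V6.5 (SD between features). Its features ran from 0.19 to 0.44 in the knockout and from 0.15 to 0.44 in V6.5, all above 0, and its adjusted p was 0.0752 in limma. Ccnb2, a cyclin of mitosis, had 0.24 in the knockout and 0.14 in V6.5. None of the 5 later cyclins measured passed the limma test, and 1 of them, Ccna1, had an unadjusted p under 0.05.

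Among the kinases, Cdk2 fell and the others did not pass. Cdk2, the partner of E- and A-type cyclins, had -0.48 in the knockout and -0.50 in V6.5, with a mean of -0.49 ± 0.07 (SE, adjusted p = 0.028 in limma). Cdk6 had -0.33 in the knockout and -0.38 in V6.5 and stood at the edge of the call (adjusted p = 0.05001). Cdk4, the other partner of D-type cyclins, had 0.01 ± 0.06 in the knockout and -0.19 ± 0.14 in V6.5 over 3 features. Cdk1, the mitotic kinase, had 0.08 ± 0.07 in the knockout and 0.18 ± 0.23 in V6.5 over 3 features. The features of Cdk4 ran from -0.05 to 0.08 in the knockout and from -0.34 to -0.08 in V6.5. Those of Cdk1 ran from 0.02 to 0.15 in the knockout and from -0.08 to 0.37 in V6.5. Features of a gene share an array and are not replicates of a line.

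None of the 5 CDK inhibitors passed the limma test, with 1 of them, Cdkn2c, higher at an unadjusted p under 0.05. Cdkn2b, the inhibitor p15 of Cdk4 and Cdk6, was the member with the lowest ratio in the knockout relative to V6.5. Its 2 features, which are not replicates of a line, had -0.77 and -0.55 in the knockout and -0.19 and 0.21 in V6.5. Cdkn2a, from the neighbouring locus that encodes p16 and Arf, stood the other way round: its 2 features had 0.20 and 0.52 in the knockout and -0.34 and 0.03 in V6.5. Cdkn1b, the inhibitor p27, had 1 feature above 0 and 1 below 0 in the knockout (0.12 and -0.48) and features of 0.00 and 0.22 in V6.5. Cdkn2c (p18) had 0.21 and 0.39, and Cdkn2d (p19) -0.14 and 0.28, in the knockout and in V6.5. Over the 5 inhibitors, 4 had a lower ratio in the knockout than in V6.5, as did 49.3% of all genes and 47.8% of the members. The median difference over the 5 was -0.29 and was not tested.

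The Cdc25 phosphatases remove the inhibitory phosphates from CDKs, and none of the 3 genes passed in limma (1, Cdc25c, at an unadjusted p under 0.05). Cdc25c, which acts at mitosis, had 0.25 in the knockout and 0.63 in V6.5, 1.19-fold and 1.54-fold higher after RA (adjusted p = 0.0855). Cdc25b had -0.24 in the knockout and 0.27 in V6.5, and Cdc25a -0.08 and -0.18.

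**Figure D2:**
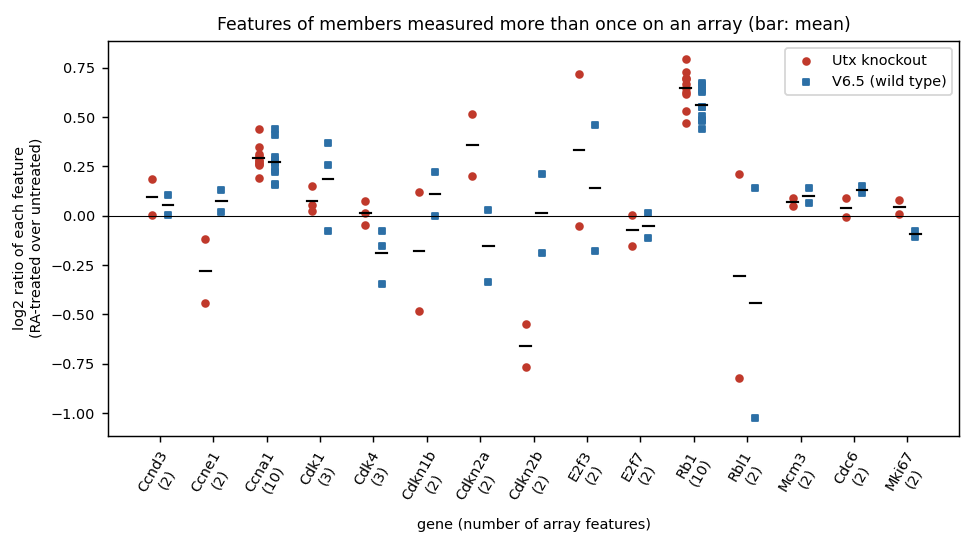
Log2 ratio of each array feature for the 15 genes with 2 or more features, circles for the Utx knockout and squares for V6.5, with the mean of the features as a bar and their number in brackets. The features of Rb1 and Ccna1 lie together above 0, those of Cdkn2b are lower in the knockout, and those of Rbl1 and E2f3 lie apart on both arrays.

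Of the 11 E2F factors and pocket proteins that bind them, 2 rose and 3 fell, where 8.93% of all genes rose and 7.93% fell. Among the activating E2Fs, E2f2 fell, with -0.64 in the knockout and -0.79 in V6.5 and a mean of -0.71 ± 0.08 (SE, adjusted p = 0.019 in limma). E2f1, with -0.51 in the knockout and -0.22 in V6.5, did not pass (adjusted p = 0.0913). E2f3 had 0.33 ± 0.54 in the knockout and 0.14 ± 0.45 in V6.5, and its 2 features disagreed on both arrays: 1 had 0.72 and 0.46 and the other -0.05 and -0.18.

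Of the E2Fs known as repressors, E2f6 rose and E2f4 fell. E2f6, which represses E2F targets without a pocket protein and sits in a Polycomb-related complex, had 0.68 in the knockout and 0.64 in V6.5, 1.598-fold and 1.56-fold higher (mean 0.66 ± 0.07 SE, adjusted p = 0.0178 in limma). E2f4, a partner of the pocket proteins in resting cells, had -0.43 in the knockout and -0.42 in V6.5 (adjusted p = 0.0359). E2f5, E2f7 and E2f8 had ratios between -0.07 and 0.12 in the knockout and between -0.05 and 0.16 in V6.5, and none of these passed.

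The pocket proteins split. Rb1, the retinoblastoma protein that restrains the activating E2Fs, rose over 10 features by 0.65 ± 0.09 in the knockout and 0.56 ± 0.08 in V6.5 (SD between features), with a mean of 0.60 ± 0.08 (SE, adjusted p = 0.0213 in limma). All 10 features lay above 0 on both arrays, from 0.47 to 0.80 in the knockout and from 0.44 to 0.67 in V6.5, so those of the arrays overlapped. Rbl2, the pocket protein p130 of resting cells, fell, with -0.44 in the knockout and -0.61 in V6.5 (adjusted p = 0.0318). Rbl1, the pocket protein p107, had 2 features that lay apart in the same way on each array. In the knockout they had -0.82 and 0.21, and in V6.5 -1.02 and 0.14. They are annotated to different transcript records of the gene, and their mean (-0.31 in the knockout and -0.44 in V6.5) did not pass (adjusted p = 0.0537).

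Mycn, the Myc factor that supports growth of early embryonic and neural progenitor cells, fell, while Myc itself did not pass. Mycn had -1.001 in the knockout and -1.41 in V6.5, which is 2.001-fold and 2.66-fold lower after RA, and ranked 371 and 124 from the bottom of all genes. Its mean was -1.21 ± 0.13 (SE, adjusted p = 0.0167 in limma), the lowest adjusted p of the 46 genes. Myc had -0.24 in the knockout and -0.23 in V6.5 (adjusted p = 0.108).

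E2F factors bind a short motif in the promoters of cell cycle genes, and the windows of 3 genes that fell are shown here with their matches. The windows are those of RefSeq on build GRCm38.p6, from 250 bases before to 50 after a transcript start, and 35 of the 46 genes had 41 windows in that table. The letters searched for E2F were TTTCCCGC and TTTGGCGC on both strands, and no match overlapped a match of another motif searched. Of the member windows, 13 held a match, which is 31.7%, against 1.56% of all 32851 windows. A match is a description of the letters and not a measured site. Among the genes that fell, Mycn (chr12:12941787-12942086, minus strand), E2f2 (chr4:136172024-136172323, plus strand) and Cdk2 (chr10:128705002-128705301, minus strand) held matches, printed 5′ to 3′ along the gene's strand with the matches in capitals.
Mycn: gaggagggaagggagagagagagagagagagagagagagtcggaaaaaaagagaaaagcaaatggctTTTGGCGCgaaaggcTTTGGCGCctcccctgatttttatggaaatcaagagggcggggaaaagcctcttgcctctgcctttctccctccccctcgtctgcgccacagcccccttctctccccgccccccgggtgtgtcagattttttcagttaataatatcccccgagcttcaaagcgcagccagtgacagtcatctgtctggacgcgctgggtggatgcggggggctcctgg
E2f2: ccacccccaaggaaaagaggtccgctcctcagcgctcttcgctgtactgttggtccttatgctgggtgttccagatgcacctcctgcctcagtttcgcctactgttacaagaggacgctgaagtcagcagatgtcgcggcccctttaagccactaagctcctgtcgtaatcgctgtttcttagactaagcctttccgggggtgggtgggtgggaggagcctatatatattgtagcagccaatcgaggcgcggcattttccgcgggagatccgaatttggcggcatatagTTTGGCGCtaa
Cdk2: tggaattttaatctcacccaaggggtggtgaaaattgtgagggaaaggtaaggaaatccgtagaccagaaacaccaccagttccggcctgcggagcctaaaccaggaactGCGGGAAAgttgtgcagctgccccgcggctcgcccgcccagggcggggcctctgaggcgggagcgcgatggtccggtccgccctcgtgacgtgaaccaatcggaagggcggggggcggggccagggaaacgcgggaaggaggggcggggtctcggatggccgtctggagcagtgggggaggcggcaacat
In Mycn the 2 matches lay at positions -183 and -168 from the transcript start, in E2f2 the match lay at 40 after it, and in Cdk2 it lay at -140 on the opposite strand. E2f6 and Rbl2, which also passed, had windows without a match. Ccnd1, Ccnd2, Rb1 and E2f4, the others that passed, had no window among those searched.

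Replication licensing, in which the Mcm helicase is loaded on DNA by Cdc6 and Cdt1, lay close to 0 as a group. None of the 9 genes passed in limma (1 lower and 0 higher at an unadjusted p under 0.05), and 8 of 9 lay within 0.2 of 0 on both arrays. Their ratios ran from -0.26 to 0.16 in the knockout and from -0.32 to 0.13 in V6.5. The helicase subunits Mcm2 to Mcm7 had 0.14, 0.07, 0.16, 0.05, 0.04 and 0.12 in the knockout, in the order of their numbers. In V6.5 they had 0.12, 0.10, -0.05, -0.02, -0.13 and -0.02. In V6.5 every value was smaller in size than the median SD between features of a gene. In the knockout all but Mcm2 and Mcm4 were smaller than it. The lowest of the group was Pcna, the sliding clamp of the replication fork, with -0.26 in the knockout and -0.32 in V6.5 (adjusted p = 0.0748). Cdc6 had 0.04 and 0.13 and Cdt1 -0.15 and -0.12, in the knockout and in V6.5.

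The windows of 4 Mcm genes held E2F matches, and stretches around them are shown beside those of Mycn, E2f2 and Cdk2. The window of Mcm2 held no E2F match. The 4 are Mcm3 (chr1:20820263-20820313, minus strand), Mcm5 (chr8:75109340-75109387, plus strand), Mcm6 (chr1:128359725-128359835, minus strand) and Mcm7 (chr5:138172021-138172068, minus strand), with the matches in capitals.
Mcm3: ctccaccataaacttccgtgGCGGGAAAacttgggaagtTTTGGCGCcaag
Mcm5: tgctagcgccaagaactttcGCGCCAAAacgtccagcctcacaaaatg
Mcm6: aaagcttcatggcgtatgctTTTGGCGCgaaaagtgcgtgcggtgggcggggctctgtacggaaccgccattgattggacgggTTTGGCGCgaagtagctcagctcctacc
Mcm7: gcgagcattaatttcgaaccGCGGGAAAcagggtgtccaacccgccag
Genes with these letters thus stood both among those that fell and among those near 0.

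Of the 3 mitotic kinases and Ki-67, 3 genes lay within 0.2 of 0 on both arrays and Plk1 did not. Plk1, which drives entry into mitosis, had 0.25 in the knockout and 0.33 in V6.5 (adjusted p = 0.0763 in limma). Aurka and Aurkb, kinases of the spindle and of chromosome attachment, had -0.11 and -0.14 in the knockout and 0.15 and 0.18 in V6.5. Mki67, the proliferation marker Ki-67, had 0.04 ± 0.05 in the knockout and -0.09 ± 0.02 in V6.5 over 2 features. None of the 4 passed, and 1 of them, Plk1, was higher at an unadjusted p under 0.05.

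Genes of mitosis often carry the cell cycle homology region (CHR) element, searched here as TTTGAA and TTCGAA on both strands, which stood in 14 of 41 member windows (34.1%) and in 19.2% of all windows. Stretches with the matches in capitals are shown for Cdk1 (chr10:69352902-69353003, minus strand), Ccnb2 (chr9:70421525-70421570, minus strand), Plk1 (chr7:122159445-122159484, plus strand) and Mki67 (chr7:135716452-135716515, minus strand), mitotic genes that did not pass the test.
Cdk1: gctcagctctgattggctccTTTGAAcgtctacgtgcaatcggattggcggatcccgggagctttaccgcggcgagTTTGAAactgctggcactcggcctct
Ccnb2: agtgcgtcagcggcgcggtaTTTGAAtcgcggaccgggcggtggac
Plk1: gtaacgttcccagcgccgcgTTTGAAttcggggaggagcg
Mki67: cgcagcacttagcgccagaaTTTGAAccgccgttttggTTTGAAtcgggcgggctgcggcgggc
The window of Ccnb2 held 2 CHR matches, and the one at -167 from the transcript start lies outside the stretch shown. CHR matches stood in the windows of Mycn, E2f2 and Rbl2 too, which fell. The CCAAT box (CCAAT), often found near the CHR, stood in 26 of 41 member windows (63.4%) and in 37.4% of all windows. The E-box CACGTG, the letters that Myc factors bind, stood in 4 member windows (9.76%) and in 7.15% of all. The 4 were those of Cdk4, Cdk6, Cdkn2c and E2f3. None of these genes passed the test, with Cdk6 at the edge of the call (adjusted p = 0.05001 in limma). Cdk4 (chr10:127063285-127063584, plus strand) held 4 E-boxes, in capitals here, and is shown as an example.
Cdk4: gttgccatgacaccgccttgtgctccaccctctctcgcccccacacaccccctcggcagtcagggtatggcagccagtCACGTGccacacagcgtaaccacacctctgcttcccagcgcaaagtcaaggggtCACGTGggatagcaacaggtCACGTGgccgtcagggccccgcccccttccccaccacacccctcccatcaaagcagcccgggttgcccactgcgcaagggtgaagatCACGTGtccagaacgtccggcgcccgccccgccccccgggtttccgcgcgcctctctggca
The retinoic acid receptor element DR5 stood in 0 member windows and in 0.0974% of all windows. The shares of windows were not matched on base composition.

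Between the lines, 3 members had RA responses that differed by at least 1.5-fold. Ccnd2 was higher in the knockout by 0.94 on the log2 scale, the 1 member higher, which is 2.17% of members against 2.50% of all genes. Ccnd1 was lower in the knockout, with a difference of -0.65, and Cdkn2b with -0.67, and these 2 genes are 4.35% of members against 1.88% of all genes. For Ccnd1 and Ccnd2 the ratio was farther from 0 in the knockout on the same side as in V6.5, and for Cdkn2b it was near 0 in V6.5. Marker genes differed between the lines as well. At least 1.5-fold lower in the knockout were 4 of 10 pluripotency markers, with differences of -0.64 for Pou5f1 to -1.48 for Tdgf1, and 2 of 10 fibroblast markers, Thy1 (-0.66) and S100a4 (-0.68). At least 1.5-fold higher were 3 of 6 RA response markers, Crabp2 (1.98), Cyp26a1 (0.73) and Dhrs3 (0.63), with 1 of 8 endoderm and 1 of 7 neural markers. Their part in the differences of the members was not tested. Next in size among the members stood Cdkn2a (0.51), Cdc25b (-0.51), Cdkn2d (-0.42) and Mycn (0.41), the last with the smaller fall in the knockout. The differences have no replicate and no test. The median size of the difference was 0.14 over the members and 0.13 over all genes. Across the 46 genes the ratios of the knockout and V6.5 had a Pearson correlation of 0.83, against 0.84 across all genes. Without Ccnd1, Ccnd2 and Mycn it was 0.72 (n = 43 genes). Genes are not independent replicates, and those of an array share its hybridisation.

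**Figure D3:**
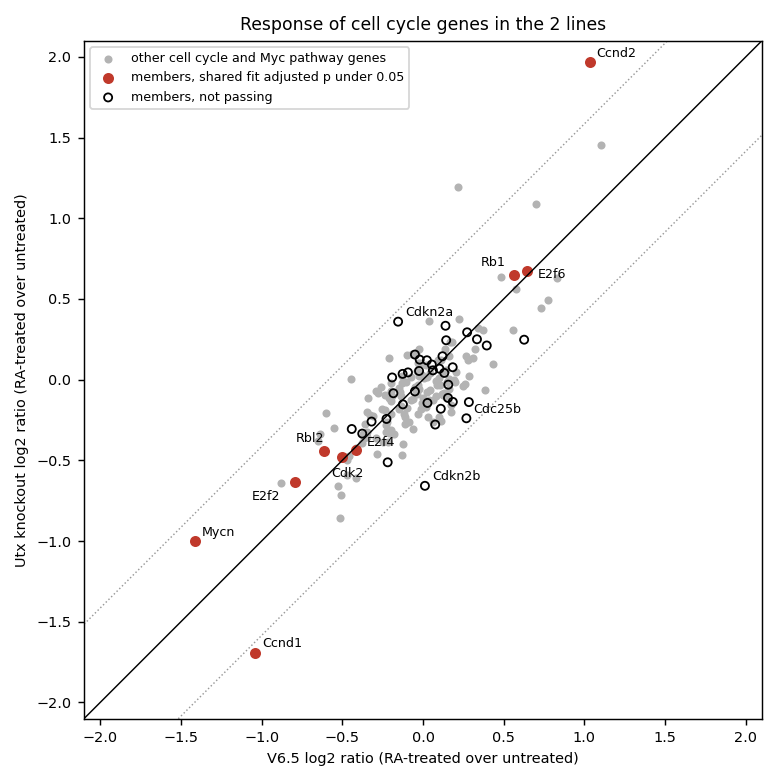
Ratio (log2) of treated to untreated cells in the Utx knockout (vertical axis) against V6.5 (horizontal axis), with members as filled or open circles and the other listed cell cycle and Myc genes in grey. The solid line marks equal ratios and the dotted lines a difference of 1.5-fold; among the members, Ccnd2, Ccnd1 and Cdkn2b lie outside the dotted lines.

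The other genes of these pathways, in lists that left out the members are given by their counts. Of 148 genes found, 7 rose (4.73%, against 8.93% of all genes) and 14 fell (9.46%, against 7.93%) in limma. Of 40 genes of replication initiation and the fork, 2 rose and 4 fell. The single-strand binding protein Rpa1 rose (0.63 in the knockout and 0.83 in V6.5), as did the repair glycosylase Ung (0.56 and 0.57). The genes that fell included the helicase cofactor Gins2 (-0.59 in the knockout and -0.47 in V6.5), the clamp loader Rfc1 (-0.47 and -0.46) and the origin subunit Orc4 (-0.40 and -0.38). Of 9 genes of nucleotide supply, 1 fell, the deoxycytidine kinase Dck with -0.48 on both arrays, and 0 rose (1 at an unadjusted p under 0.05). Of 10 MuvB subunits and E2F partners, 2 fell and 0 rose (0 at an unadjusted p under 0.05): Mybl2, an activator of mitotic genes, with -0.72 in the knockout and -0.51 in V6.5, and the MuvB subunit Lin52 with -0.43 and -0.42.

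Of 34 spindle and mitosis genes, 1 fell and 0 rose in limma, where 7.93% of all genes fell and 8.93% rose. At an unadjusted p under 0.05, 8 were lower and 0 higher, against 4027 and 3785 of all 22485 genes. The gene that fell was Cep55, which acts in the last step of cell division, with -0.66 in the knockout and -0.53 in V6.5. A lower ratio in the knockout than in V6.5 was seen for 26 of the 34 (76.5%), against 49.3% of all genes. The median size of the difference was 0.10 over the 34 and 0.13 over all genes, and none of the 34 differed by 1.5-fold.

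Of 26 further CDK regulators, 3 rose and 3 fell, where 8.93% of all genes rose and 7.93% fell. The CDK inhibitor Cdkn1c (p57) rose with 1.09 in the knockout and 0.70 in V6.5, while Cdkn1a (p21) fell with -0.86 and -0.51. The membrane-linked kinase Cdk14 rose with 1.45 in the knockout and 1.10 in V6.5, and the phosphatase Cdkn3 rose with 0.45 and 0.73. Cdc14b, a phosphatase whose budding yeast relative drives mitotic exit, fell with -0.64 and -0.88. Ccnb3, a cyclin of meiosis, had 1.19 in the knockout and 0.22 in V6.5, the 1 gene of the further pathway lists with a difference of 1.5-fold between the lines, and was picked out after its values were seen. In the Myc network, 1 of 14 rose and 2 fell. Mxd4 had 0.64 in the knockout and 0.48 in V6.5, Mxd3 had -0.61 and -0.41, and the glucose-sensing partner Mlxip -0.34 and -0.37. Of 15 growth genes bound by Myc, the translation helicase Eif4a1 rose (0.49 in the knockout and 0.78 in V6.5) and the nucleolar protein Nolc1 fell (-0.50 and -0.47). The list median was -0.07 in the knockout and -0.13 in V6.5. At an unadjusted p under 0.05 in limma, 1 of these 15 was higher and 6 lower. The same counts were 1 and 5 in the Myc network and 7 and 3 for the further CDK regulators. Over all 22485 genes they were 3785 and 4027.

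**Figure D4:**
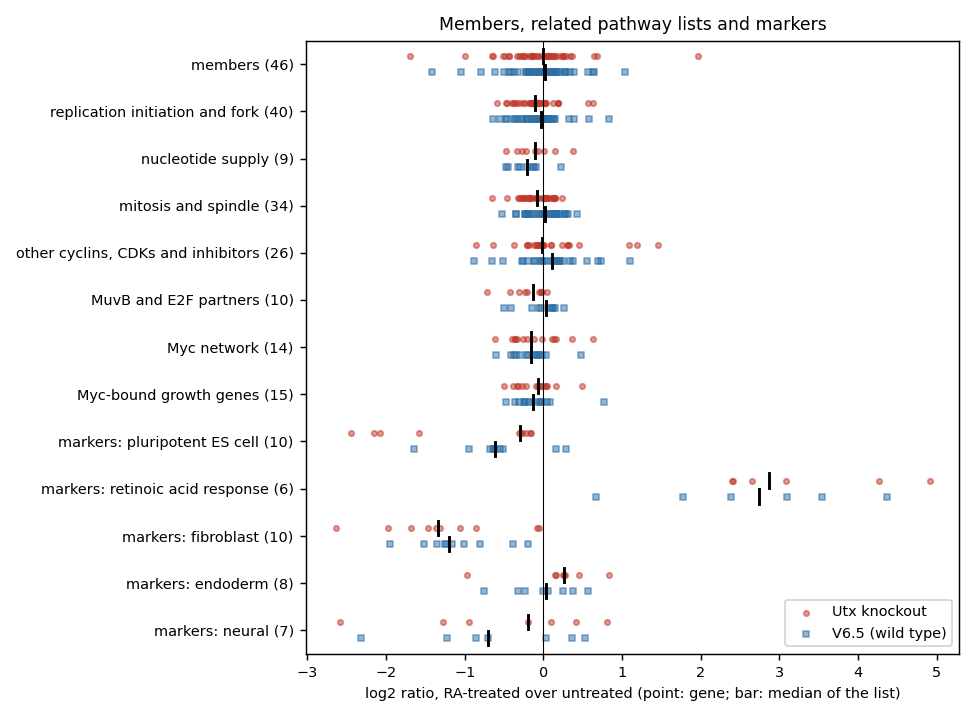
Ratios (log2) of treated to untreated cells for the members, the related pathway lists and the marker lists, with 1 point per gene, circles for the Utx knockout above squares for V6.5, bars for list medians and the number of genes in brackets. The medians of the pathway lists lie between -0.21 and 0.11, those of the RA response markers at 2.87 in the knockout and 2.74 in V6.5, and those of the fibroblast markers at -1.34 and -1.20.

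Markers of other cell types that differentiating ES cells can yield were listed too. Over 8 endoderm markers the median was 0.26 in the knockout and 0.03 in V6.5, with 0 higher and 1 lower in limma (2 higher and 1 lower at an unadjusted p under 0.05). Over 7 neural markers it was -0.19 in the knockout and -0.71 in V6.5, with 1 higher and 3 lower in limma (1 higher and 4 lower at an unadjusted p under 0.05). Of all genes, 8.93% rose and 7.93% fell in limma. Their part in the ratios of the cell cycle genes was not tested.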

How the data were processed

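Total RNA of RA-treated and untreated cells shared a dual-colour Agilent array for each line (Cy5 and Cy3, per the labels), with 1 array for the Utx knockout and 1 for V6.5 and 0 dye swaps. The authors deposited 1 ratio per feature, read here as log2, a base inferred from the size of the values. Limma is named without role or version in the submitters' processing notes, and no source used here states the background correction or normalization. The deposited log2 columns have a mean of 0, and their medians over features are -0.03 on each array. Spot intensities were not used here, so signal over background is unknown, and precision is limited by having 2 arrays.

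Of 44397 features, 33026 had 1 gene symbol in the platform annotation, 0 several and 11371 none here. Features were averaged per gene, with 31 members on 1 feature, 13 on 2 or 3 and 2 on 10. All 46 members found had their Entrez number and symbol in RefSeq (GRCm38.p6). Limma 3.58.1 in R 4.3.3 fitted an intercept over both arrays for all genes (lmFit, eBayes, two-sided, Benjamini-Hochberg, 1 residual and 2.98 prior degrees of freedom). The step was run on ratios simulated from the fitted spread, without a dye bias, as a check of the code. That check cannot tell whether the calls made here hold. Python 3.11.15, numpy 2.4.6, pandas 2.3.3 and matplotlib 3.10.9 did the rest. Alternatives were robust eBayes, treat, other thresholds, median centring, one spread for both arrays and the median over features. Members, lists and tests were chosen with earlier results of these data known. The rule asked for per-array values of members past the test, past 1.5-fold on an array or between lines, and for ranges of the rest by role; single values of the rest were added. Of each further list, at most 5 genes past the test are named by size.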

Additional observations from a re-analysis of the deposited data

Results flagged for a closer look

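In 16 of the 46 members, or 34.8%, the ratio lay above 0 in 1 line and below 0 in the other, against 24.4% of all genes. These differences were not tested. In 14 of the 16 both ratios were smaller than 0.3 in size, and 1, Cdkn2b, had a difference of 1.5-fold or more. The knockout minus V6.5 differences (log2) below 0 were -0.67 for Cdkn2b, -0.51 for Cdc25b, -0.42 for Cdkn2d, -0.35 for Ccne1, -0.32 for Aurkb, -0.29 for Cdkn1b, -0.27 for Aurka, -0.19 for E2f8 and -0.17 for Ccne2. Those above 0 were 0.51 for Cdkn2a, 0.21 for Mcm4, 0.20 for Cdk4, 0.16 for Mcm6, 0.14 for Mcm7, 0.14 for Mki67 and 0.0782 for Mcm5.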

How the results depend on the processing

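With robust eBayes, median centring and the median over features, all 46 members kept their direction and their side of the threshold. With both arrays brought to one spread, Cdk6 joined those that fell (adjusted p = 0.0479). Against 1.5-fold with limma's treat, 0 members rose and 0 fell, where 1 and 2 had an unadjusted p under 0.05, and the 9 calls were lost, with adjusted p of 0.15 for Mycn, 0.194 for Ccnd1 and 0.282 for Ccnd2. At an adjusted p threshold of 0.1, 7 rose and 10 fell. At 2-fold in place of 1.5-fold, 1 was higher and 2 lower in the knockout, 1 higher and 2 lower in V6.5, and 0 higher and 0 lower between the lines. Shares of all genes at the 0.1 and 2-fold thresholds are not given here, so these counts only describe the members. No paired analysis was possible because each line has 1 array. With 1 array per line, leaving out an array leaves no test.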
